A study of Mus musculus with 4 samples.

Results

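The introns described here, 974 in 750 host genes of mouse liver, were covered by reads at no less than 0.2 times the value of their parent transcript, out of 185903 intron coordinates of RefSeq transcripts. Each was at least 100 bases long, overlapped no exon of any listed transcript, held at least 20 reads in each of the 4 libraries, and reached that ratio in its mean value over libraries. Most were at less than 0.5 times the transcript value, a level that 328 reached. Against the flanking exons in place of the whole transcript, 444 introns reached 0.2, and 1028 did with the length correction described below. The length limit left 175757 coordinates, the exon limit 138742 and the read limit 10305, and the last group, called the introns tested, is the background below. Members were thus chosen by the ratio of intron to transcript value and by intron reads, so the mean ratio is a description and carries no test. A member near the limit may have passed it through 1 high library. Contrasts between libraries in such members follow in part from the rule.

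The libraries were made from polyA RNA of the liver of C57/BL6 mice, 1 library per time and RNA of 3 animals pooled in each, at circadian times CT22, CT28, CT34 and CT40, 6 h apart. Every animal carried the ClockΔ19 mutation, which leaves a CLOCK protein that binds its partner but activates poorly, and 2 transgenes, Scg2:tTA and tetO::Clock-HA. Scg2 is a gene of neurons and endocrine cells, so the driver was not aimed at the liver, and tTA does not bind tetO in the presence of doxycycline. All animals drank doxycycline at 30 ug/ml from 3 days before constant darkness, after entrainment to 12 h of light and 12 h of dark, and no wild type or untreated group was included. With 1 library per time there are no replicates and no tests. Intervals below are exact conditional 95% intervals of a ratio between libraries and cover counting error only.

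The values are per length and per library total as far as the numbers show, and implied between 24520719 and 27546172 reads per library. Reads summed over exons came to 2.04 to 2.16 times those of the transcript (median over transcripts), as would be seen if a read counted in every feature it touched, which raises short features. The counting rule itself is not given in the sources used here, and the excess was measured on exons, not on introns. A ratio with 262 bases added to the intron length, called corrected, is given beside many of the short introns named. The transcript length was left as it was, and with flanking exons as denominator each exon also had 262 bases added. The correction assumes that introns were counted as exons were. The summed value of 8 hepatocyte markers was 50915 to 61085, against 10.5 to 24.0 for 4 endothelial, 39.9 to 53.7 for 4 Kupffer cell, 55.7 to 72.8 for 4 stellate cell, 2.74 to 6.13 for 4 bile duct, 2.16 to 2.45 for 4 lymphocyte and 119 to 501 for 2 erythroid markers. In bulk RNA, fewer cells of a type and less RNA per cell cannot be told apart.

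Introns are cut from a transcript by the spliceosome, which reads the donor site at the start of the intron and the acceptor site at its end, nearly always GT and AG. An intron that stays in polyadenylated RNA is called retained, or detained when the RNA waits in the nucleus. Short introns, introns late in a transcript and introns of RNA-binding protein genes are known for it. The same coverage can come from an exon missing in the gene models, another promoter, a transcript of the other strand or a repeated sequence. The deposited values do not show which bases of an intron were covered, and the library protocol did not mark strand, so these sources cannot be told apart from the values alone.

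These 4 short members flanked by coding exons are shown whole because in them a read covers much of the intron and the donor and acceptor can be seen together. They were copied from GENCODE M21 transcripts (GRCm38) that run across the intron, on the strand of the gene, and the capitals mark the first and last 2 bases of the intron. Cyp27a1 intron 4 (chr1:74735752-74735863, + strand), Stat2 intron 20 (chr10:128285084-128285271, + strand), Stap2 intron 8 (chr17:55999809-55999912, - strand) and Rgl3 intron 11 (chr9:21976978-21977189, - strand) are 112, 188, 104 and 212 bases long.
Cyp27a1 intron 4: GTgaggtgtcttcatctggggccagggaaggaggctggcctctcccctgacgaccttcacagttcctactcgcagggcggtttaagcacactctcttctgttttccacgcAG
Stat2 intron 20: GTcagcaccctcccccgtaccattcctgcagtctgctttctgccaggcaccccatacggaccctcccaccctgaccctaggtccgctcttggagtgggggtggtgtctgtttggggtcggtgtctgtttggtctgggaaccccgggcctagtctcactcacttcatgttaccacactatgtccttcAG
Stap2 intron 8: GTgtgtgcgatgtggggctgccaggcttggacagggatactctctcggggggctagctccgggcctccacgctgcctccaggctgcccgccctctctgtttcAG
Rgl3 intron 11: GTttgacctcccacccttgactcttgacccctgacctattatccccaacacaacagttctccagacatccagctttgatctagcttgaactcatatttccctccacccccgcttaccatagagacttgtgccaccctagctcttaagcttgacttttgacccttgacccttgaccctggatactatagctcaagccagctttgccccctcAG

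Most members whose sequence could be read had the usual ends: 92 of 97 began with GT and ended with AG, as did 129 of 131 other introns tested. The rest of the members were Ccar1 intron 14, Snrnp48 intron 6, Cyp2d22 intron 3 and 4930581F22Rik intron 1, which began with GC, and E2f6 intron 5, which began with AT and ended with AC. Donor windows are shown for 4 of these and for other members, as 10 exon bases followed by 20 intron bases with the first 2 intron bases in capitals, to set the GC and AT starts beside GT starts. The E2f6 intron was the 1 member of 97 whose first 8 bases matched the letters NTATCCTT (N any base; gene strand only), the donor of the minor spliceosome, against 0 of 131 others. Snrnp48 encodes a protein of that minor spliceosome, though its own intron begins otherwise. The 4 shown, and Stap2, Rgl3, Akap8l and Tfr2, were chosen for display after their values were seen.
E2f6 intron 5 (chr12:16820385-16822092, + strand): aaaatgaaagATatccttccatcagtacct
Snrnp48 intron 6 (chr13:38217496-38220687, + strand): atacactgagGCaagtttcacatgcttttg
Ccar1 intron 14 (chr10:62763524-62764323, - strand): tggagaacagGCactgaacgctaatccctt
Cyp2d22 intron 3 (chr15:82374057-82374297, - strand): cgctctcaagGCaaatgcagacagtggcgg
Nxf1 intron 10 (chr19:8765032-8766796, + strand): gctatatcagGTcagttgtagcctctgtct
Pan2 intron 10 (chr10:128313261-128313614, + strand): catgatccagGTaagggcaggctctccatg
Gckr intron 9 (chr5:31305075-31306487, + strand): tgccatcgggGTagggccagactcctttct
Clk3 intron 4 (chr9:57758351-57758626, - strand): caagagcgatGTacagccacctttcgtaaa
Akap8l intron 9 (chr17:32333145-32334587, - strand): tggtggaaagGTaactgtcttccctccatc
Tfr2 intron 18 (chr5:137583633-137583925, + strand): ggacctcaagGTccaagatgccaatcccgc
Itih3 intron 9 (chr14:30917788-30918274, - strand): gatcaaagcaGTgagctggggggaggggac

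Of the 97 members read, 14 (14.4%) began with GTAAG and 34 (35.1%) with GTGAG, donor starts close to the complement of U1 RNA, against 19.8% and 30.5% of the 131 others. The median GC content was 52.5% in members and 49.9% in the others, and by length it was 56.2% against 53.3% at 100 to 299 bases, 50.7% against 52.2% at 300 to 999 and 47.2% against 46.8% at 1000 or more. These sequences come only from introns that some GENCODE transcript already runs across, so they do not stand for all members. No test was made of these shares.

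The ratio among members ran from the 0.2 limit upward, with a median of 0.371, quartiles of 0.259 and 0.613 and a 90th percentile of 1.21. In 328 members the intron reached at least 0.5 times its transcript, and in 126 (12.9%) it equalled or passed it. In 5 members the parent transcript was listed at 0 in every library. The last introns inside the limit were Camk1d intron 3, Slc25a42 intron 4, Rad54l2 intron 18, Inpp4a intron 8 and Dalrd3 intron 5, at 0.2 to 0.201. Those just outside were Chd3 intron 37, Matr3 intron 6, Slc38a3 intron 9, Tmem161b intron 5 and Slc31a2 intron 2, at 0.199 to 0.2. The ratios ran on across the limit without a gap.

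**Figure D1:**
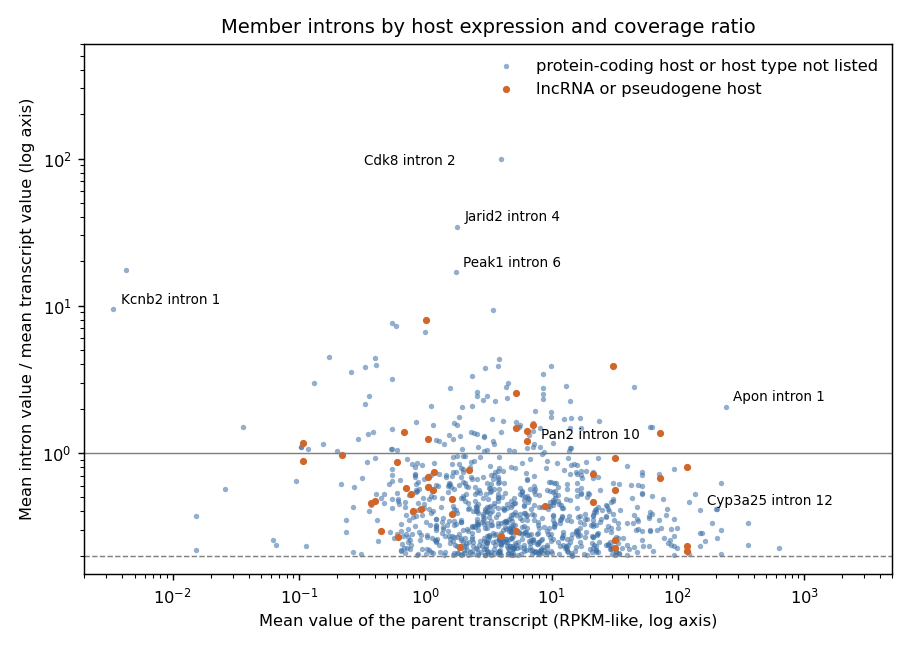
Each point is 1 member intron with a parent transcript above 0, by the mean value of its parent transcript (x axis, scaled to length and library total, log scale) and the mean intron value divided by the mean transcript value (y axis, log scale), with hosts that are lncRNA genes or pseudogenes in orange. The solid line marks a ratio of 1 and the dashed line the limit of 0.2. Most members lie between 0.2 and 1 over hosts of middling level, Cdk8 intron 2 stands highest at 98.8, and Apon intron 1 is at 2.05 over a host with a mean above 100.

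The parent value is the divisor of the ratio that chose the members, and a low ratio reaches 20 intron reads only over a high parent, so the level of hosts follows from the rule and is a description. The median parent transcript value was 4.43, against 16.1 for the other 9331 introns tested, and the middle 90% ran from 0.410 to 59.9. Members were shorter, with a median of 1444 bases against 4431. They were the first intron of their transcript in 8.93% of cases against 17.5%, and the last in 19.5% against 12.1%. Long noncoding RNA genes hosted 24 members and pseudogenes 20, together 4.52% of members against 0.439% of the other introns. A listed transcript of the opposite strand ran over 7.70% of members and 2.70% of others.

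The share of members by intron length is also a description. A minimum of 20 reads asks a higher value of a short intron than of a long one, so short introns enter the set only with high values, and no correction used here removes this. The share of introns tested that were members was 39.8% (99 of 249) at 100 to 199 bases, 25.5% at 200 to 499, 19.1% at 500 to 999, 10.3% at 1000 to 4999 and 3.27% (147 of 4494) at 5000 bases or more. With lengths corrected, the slope was flatter, with shares of 19.7, 16, 13.5, 8.71 and 3.03%, in the same order. After that correction 748 of the 974 members still had a ratio of at least 0.2. Cyp27a1 intron 4, for example, had a ratio of 0.418 as deposited and 0.125 corrected.

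**Figure D2:**
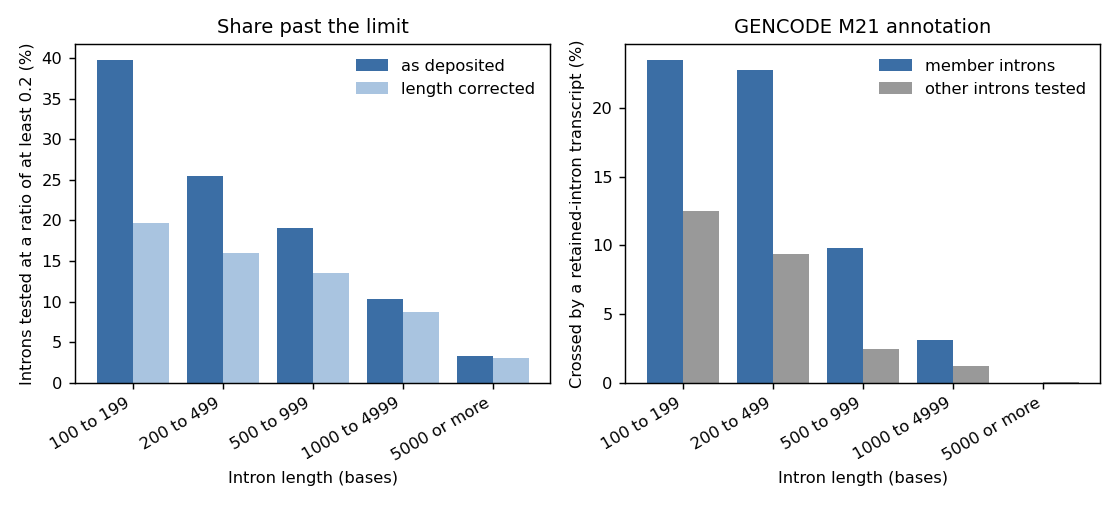
Left, the share of introns tested with a ratio of at least 0.2 (y axis, %) by intron length in bases, from the deposited values (dark) and with lengths corrected for the bases a read spans (light); the share goes from 39.8% in the shortest class to 3.27% in the longest, and from 19.7% to 3.03% when corrected. Right, the share of introns with a GENCODE M21 retained-intron transcript across them (y axis, %), for members (blue) and other introns tested (grey); in the class of 200 to 499 bases it was 22.8% against 9.39%.

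Annotation of GENCODE M21 was compared next; the rule had already removed introns that overlap an exon of any transcript listed in the files, so these are models beyond that list. Of the 926 members matched to a GENCODE M21 intron of the same gene and length, 79 (8.53%) were crossed whole by a transcript that GENCODE types as a retained intron, against 116 of 9125 others (1.27%). Members are shorter, and short introns are crossed more often, so the shares were also set out by length: 23.5% against 12.5% at 100 to 199 bases, 22.8% against 9.39% at 200 to 499, and 9.80% against 2.48% at 500 to 999. Any M21 exon of the same gene lay within 291 members (31.4%), against 19.2% of others. An M21 exon of another gene lay within 70 members (7.56%), against 10.5% of others. One of the opposite strand lay within 52 (5.62%), against 6.06%. A snoRNA lay in 4 and a miRNA in 4 of those matched, 0.432% each, against 0.592% and 0.767% of the others.

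Spliced reads were a readout the rule did not use. Reads across the exact ends of the intron show that it is also removed in this tissue. For 106 members (10.9%) no such read was listed in any library, against 157 of the others (1.68%), and 317 members (32.5%) had at least 100 summed over libraries, against 65.3%. Transcript values of members were lower, as given above, and the part of that in these counts was not tested. Junctions with at least 1 end inside the intron, whatever their read number, were listed in 451 members (46.3%) and in 51.1% of others. They can come from an exon or splice site that the gene models lack, which was not tested. Such inner junctions held at least 20 reads in 92 members (9.45%) against 5.29%, and outnumbered the reads that remove the intron in 103 members (10.6%) against 1.60%.

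A few introns held most of the reads. Members had 1170940 reads in all, of which 50.5% lay in Cdk8 intron 2, Jarid2 intron 4 and Peak1 intron 6, while the median member had 232.5. Cdk8 encodes a kinase of the Mediator complex. Its intron 2 (mm9 chr5:147071157-147079790, 8634 bases) had values of 502, 296, 411 and 370 from CT22 to CT40, over transcript values of 4.28, 3.80, 3.93 and 3.97. In each library the intron was 77.9 to 117 times its transcript, although only 27 reads crossed its exact junction. Junctions with an end inside this intron held 52 reads. Jarid2 encodes a partner of the Polycomb complex that methylates histone H3, and its intron 4 had values of 71.5, 54.1, 61.7 and 59.4 over transcript values of 1.46 to 2.02. Peak1 encodes a pseudokinase of the cytoskeleton, and its last intron had values of 48.9, 19.9, 23.1 and 26.1 over transcript values of 1.28 to 2.18. Its ratio was 38.1 at CT22 and 10.6 to 13.4 later, and the CT22 ratio was 3.6 times that at CT34 (interval 3.16 to 4.11). With upper values, which appear to include reads that map to more than 1 place, the mean ratio was 60.4 for Cdk8, 45.3 for Jarid2 and 74.9 for Peak1.

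The remaining introns at the top of the order lay mostly in genes with little or no exon signal in liver. The 5 with parents listed at 0 were Il1rapl1 intron 5, Cyp2j11 intron 4, Myo3a intron 30, D130009I18Rik intron 1 and Il31ra intron 1. Il31ra encodes a cytokine receptor chain, and its intron 1 held 3865, 1599, 2100 and 2047 reads with no junction read. D130009I18Rik intron 1, of 90684 bases, held between 7664 and 9591 reads per library. Kcnb2 intron 1, in a potassium channel gene, is 396454 bases long and held 164 to 496 reads, so a low value over a long stretch passed the limit. In Nrap, a muscle gene, intron 41 was 6.68 to 8.27 times its transcript, and GENCODE M21 places exon sequence of Habp2, a plasma protease gene of hepatocytes, within it. Fras1 intron 53 was at 4.61 to 11.5 times its transcript, Fam120b intron 10 at 7.88 to 13.0 (corrected mean 3.24), Tnxb intron 40 at 2.94 to 16.9 and 4933404O12Rik intron 3 at 3.72 to 16.6. Against flanking exons the mean ratio was 0.552 for this Nrap intron, 0.853 for Fras1, 5.37 for Fam120b and 6.97 for 4933404O12Rik. With lengths corrected these were 0.888, 1.95, 2.37 and 7.73. Gm10778 intron 1 had a ratio of 17.5 from lower values and 0.380 from upper values, so its place rests on how multiply mapped reads were handled.

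Among hosts whose exons are well expressed in liver, Apon stood out. Apon encodes apolipoprotein N, a plasma protein, and its only intron (153 bases) had values of 380, 493, 523 and 566 over transcript values of 165, 262, 251 and 277. The ratio was 1.88 to 2.31 in each library, and the exact junction still had 3291 reads. With the length correction the mean ratio was 0.757. Its donor window, shown because this intron had the most reads of any in the plasma protein list, has a GTGAG start.
Apon intron 1 (chr10:128254282-128254434, + strand): tgccagacagGTgagggtaacagcctctaa

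With Apon included, plasma protein genes held the following. Of 441 introns tested in 69 such genes, 10 (2.27%) were members, against 9.45% of all introns tested. Low ratios reach 20 reads only over high parents, so a low share in highly expressed genes follows in part from the rule. Itih3 encodes a chain of the inter-alpha-trypsin inhibitor family, and its intron 9, whose donor is shown above, had values of 91.6, 113, 171 and 105 over transcript values of 241, 343, 455 and 407. Its ratio was 0.380, 0.331, 0.376 and 0.258, with 1629 junction reads, while Itih3 intron 16 had 14277 and a ratio of 0.177 to 0.296. F12, coagulation factor XII, had intron 9 at 0.208 to 0.363 and intron 10 at 0.291 to 0.526, both highest at CT22. C4b, a complement component, had intron 20 at 0.206 to 0.455. These introns are 103 to 165 bases long except Itih3 intron 9, and the corrected ratio was under 0.2 for the F12 and C4b introns and Itih3 intron 16. F11 intron 8 had 20 to 63 reads per library and a ratio of 0.409, 0.460, 0.969 and 0.725, with a corrected mean of 0.192. Afp, the fetal albumin-like protein that is nearly silent in adult liver, had introns 10, 11 and 12 as members over transcript values of only 1.57 to 2.24, with 4, 2 and 0 junction reads.

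Genes for RNA-binding and splicing proteins were looked at next. The counts were 6 of 24 introns tested (25%) for SR and SR-related proteins, 13 of 57 (22.8%) for hnRNP and other RNA-binding proteins and 2 of 9 (22.2%) for the CLK and SRPK kinases that phosphorylate SR proteins, each against 9.45% of all introns tested. For the spliceosome core it was 2 of 19 (10.5%), both in U2af1. These lists were chosen with knowledge that such genes retain introns. A corrected ratio of at least 0.2 was kept by 6 of 6 SR, 8 of 13 hnRNP and 2 of 2 kinase members, and by 748 of all 974. In other lists the share was 2 of 7 (28.6%) for cytosolic ribosomal proteins and 3 of 5 (60%) for snoRNA host and long noncoding genes. It was 1 of 4 (25%) for DEAD-box helicases and translation factors with regulated introns, and 2 of 30 (6.67%) for heat shock and ER chaperones.

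Srrm2 encodes a large SR-related protein of nuclear speckles, and its intron 11 (1090 bases) had values of 25.4, 24.0, 28.2 and 39.0 over transcript values of 33.0, 50.1, 51.6 and 58.0. The ratio was 0.768, 0.479, 0.546 and 0.672, lowest at CT28, with 702 reads at the exact junction. Pnisr, Nktr and Bclaf1 encode SR-related proteins, and their members had mean ratios of 0.257 (Pnisr intron 10), 0.377 and 0.350 (Nktr introns 15 and 16) and 0.233 (Bclaf1 intron 6). Luc7l intron 5, in a gene for a U1-associated protein, had a mean ratio of 0.318 from lower and 2.18 from upper values, and M21 places the pseudogene Gm16580 within it. Clk3 intron 4 was at 0.582, 0.532, 0.472 and 0.551, and the CT22 ratio was 1.23 times that at CT34 (interval 0.862 to 1.77). Srpk2 intron 14 was at 0.228 to 0.343.

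The hnRNP members had several last introns, as in Hnrnpd, Hnrnpa1, Hnrnpa2b1 and Tial1. Hnrnpd encodes AUF1, which binds AU-rich elements, and its intron 7 had values of 6.18, 3.14, 2.52 and 1.86 over transcript values of 2.91, 2.34, 2.25 and 2.74. The ratio was therefore 2.12, 1.34, 1.12 and 0.678, and the CT22 ratio was 1.90 times that at CT34 (interval 1.40 to 2.60). Hnrnpl, which regulates its own splicing, had intron 6 at 0.404, 0.355, 0.275 and 0.296, with 123 reads in junctions ending inside it. Hnrnpa2b1 intron 10 was at 0.766 at CT22 and 0.418 to 0.429 later, with a corrected mean of 0.188. Rbm10, a splicing regulator, had introns 5 and 6 at 0.371 to 0.649 and 0.510 to 0.791. Hnrnpa1 intron 10 was at 1.92 to 2.74, with a mean ratio of 2.42 from lower and 0.733 from upper values. Ddx5, an RNA helicase, had its intron 12 at 0.302 to 0.546, with a corrected mean of 0.182. U2af1 introns 2 and 3 had mean ratios of 0.450 and 0.533 from lower values but 0.119 and 0.137 from upper values.

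Genes known for detained or regulated introns held 5 members of 14 introns tested (35.7%), in Nxf1, Mdm4 and Pan2, against 9.45% of all introns tested. The list was made of genes with such introns, so its share is a description. Nxf1 encodes the main mRNA export receptor, and its intron 10 carries a known element for the export of its own intron-bearing RNA. Values of Nxf1 intron 10 were 11.4, 7.4, 8.41 and 8.67 over transcript values of 16.2, 17.1, 17.0 and 13.8. The ratio was 0.703, 0.433, 0.495 and 0.629, so CT28 was lowest, at 0.689 times CT40 (interval 0.580 to 0.818). Mdm4 encodes an inhibitor of p53, and its introns 6 and 7 were at 0.365 to 0.608 and 0.428 to 0.692. Pan2 encodes the catalytic subunit of a poly(A) nuclease. Pan2 intron 10 was at 1.15, 1.12, 1.16 and 1.16, with 19 junction reads and a corrected mean of 0.659. Pan2 intron 23 was at 0.977, 0.738, 0.623 and 0.536. For CT22 over CT34 the interval was 0.688 to 1.41 for intron 10 and 1.12 to 2.20 for intron 23, and these overlap. Among noncoding hosts, Jpx intron 2 was at 0.664 to 0.825, Pvt1 intron 3 had a mean ratio of 0.973 over a parent with only 11 to 28 reads per library, and Snhg14 intron 2 was at 0.164 to 0.296.

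Enzymes of bile acid, drug and lipid metabolism held members with different courses. In cytochrome P450 and phase II genes 13 of 257 introns tested were members (5.06%), and in cholesterol and lipid synthesis 3 of 116 (2.59%). The share over all introns tested was 9.45%. As for plasma protein genes, low shares in highly expressed genes follow in part from the rule. Cyp27a1 encodes the mitochondrial sterol 27-hydroxylase of bile acid synthesis, and its intron 4, printed above, had values of 68.4, 84.9, 72.8 and 112 over transcript values of 135, 197, 202 and 274. Cyp3a25, a drug-metabolising P450, had transcript values of 157, 133, 129 and 180. Its intron 12 was at 0.533, 0.364, 0.263 and 0.434 of that, highest at CT22, while its intron 6 was at 0.125, 0.274, 0.351 and 0.386 and its intron 11 at 0.139, 0.226, 0.259 and 0.302, both lowest at CT22. The corrected mean of intron 6 was 0.135. Intron 11 also held 2114 reads in junctions ending inside it. Introns 1 to 4 of Cyp4a32, a fatty acid hydroxylase gene in a cluster of near-identical copies, were each highest at CT40, from 0.413 to 0.555, but at mean ratios of 0.0715 to 0.175 from upper values. Reads of such copies cannot be assigned with certainty. The mean of Cyp4a32 intron 4 passed the 0.2 limit only with CT40, so that contrast follows in part from the rule. Gstt2 intron 1 was at 0.229, 0.393, 0.592 and 0.657, Cyp2a22 intron 3 at 0.233 to 0.601, and Cyp3a59 introns 5 and 6 were highest at CT40, at 0.516 and 0.687. The corrected mean was 0.148 for the Cyp2a22 intron and 0.198 for Cyp3a59 intron 6.

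Insig1 encodes the endoplasmic reticulum protein that holds back sterol synthesis. Its intron 3 had values of 26.0, 21, 12.9 and 22.6 over transcript values of 57.0, 55.1, 67.8 and 95.1. The ratio was 0.456, 0.381, 0.191 and 0.238, and CT22 was 2.39 times CT34 (interval 1.93 to 2.97). Its corrected mean ratio was 0.184. Gpam, the first enzyme of triglyceride synthesis, had its intron 20 at 0.432, 0.469, 0.264 and 0.245. Both introns had higher ratios in the first pair of libraries than in the second.

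Of 16 introns tested in 7 core clock genes, 1 was a member (6.25%, against 9.45% of all introns tested). It was intron 3 of Per2 (mm9 chr1:93345440-93346389, - strand, 950 bases). Per2 encodes a repressor of the CLOCK and BMAL1 complex. The transcript value was 6.66, 8.45, 5.21 and 2.21, while the intron value was 0.841, 0.879, 1.07 and 2.35 from 22, 23, 25 and 59 reads. The intron was thus highest where the transcript was lowest, at CT40. The ratio was 0.126, 0.104, 0.206 and 1.07, and that at CT28 was 0.0975 times that at CT40 (interval 0.0567 to 0.163). The mean over libraries passed the 0.2 limit only with CT40, so this contrast follows in part from the rule and is a description. The corrected mean ratio was 0.179. Its exact junction had 71 reads over the 4 libraries. Without a strand mark, reads of Per2 and of any antisense RNA over this intron cannot be told apart.

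Over all members with at least 20 transcript reads in each library (932 of 974), the median ratio from CT22 to CT40 was 0.421, 0.386, 0.330 and 0.334. The 9292 other introns had medians of 0.0398, 0.0307, 0.0247 and 0.0249, so the whole set of introns was higher at CT22. The ratio ranged at least 2-fold over the 4 libraries in 214 members (23.0%), against 44.7% of all 10224 introns tested. It was highest at CT22 in 453 members (48.6%) against 62.9% of introns tested, at CT28 in 232 (24.9%) against 19.2%, at CT34 in 10.8% against 6.79%, and at CT40 in 146 (15.7%) against 11.1%. Centred on the median of all introns tested in each library, 209 members (22.4%) had a 2-fold range, against 29.8% of introns tested. Several values moved with it. The median transcript value of members was 4.1 at CT22 and 5.30 at CT40, and the CT22 library listed 11810932 junction reads against 13945377 to 14943920 in the others. The bases added per feature, estimated from exons, were 250, 255, 269 and 275, and the summed endothelial markers were 10.5, 12.9, 24.0 and 18.2 from CT22 to CT40. Their part in the course was not tested.

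The median log2 of the ratio at CT22 over that at CT34, 12 h apart, was 0.31 in members and 0.60 in all introns tested. The ratio was higher at CT22 in 681 of the 932 members (73.1%), against 80.3% of all introns tested. It was at least 2-fold higher in 87 (9.33%) against 28.3%, and at least 2-fold lower in 14 (1.5%) against 1.63%. For CT28 over CT40, also 12 h apart, the median log2 was 0.19 in members and 0.27 in all introns tested, at least 2-fold higher in 38 members (4.08%) against 7.91% and at least 2-fold lower in 14 (1.5%) against 1.17%. Relative to the median of all introns tested in each library, the signs turned in members, to -0.36 and -0.12. All introns tested had -0.07 and -0.03 on that scale. The members highest at CT22 numbered 110 (11.8%), against 31.3% of all introns tested. A member that was merely level in ratio over time is therefore lower at CT22 on the centred scale, and directions given here are on the uncentred scale unless stated.

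**Figure D3:**
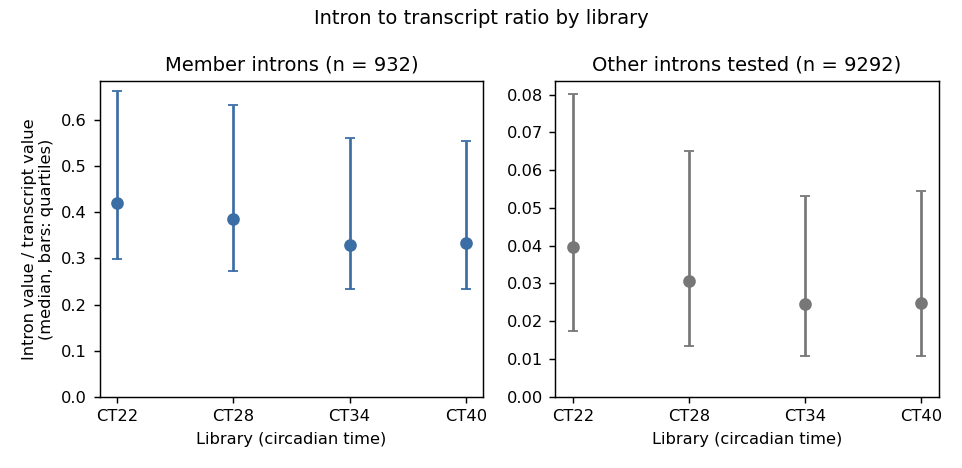
The ratio of intron to transcript value in each library (x axis, circadian time) for members (left, n = 932) and for the other introns tested (right, n = 9292, another scale), with the median as a point and the quartiles as bars. The member median goes from 0.421 at CT22 to 0.334 at CT40 and that of the others from 0.0398 to 0.0249; the bars show spread between introns, not between replicates.

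Among the 187 members with at least 100 reads in each library, 34 had a 2-fold range (18.2%), against 37.1% of 1845 introns tested. The widest was 4933404O12Rik intron 3, at 4.46-fold between CT22 and CT40. Ces3b encodes a liver carboxylesterase. Its intron 10 had values of 65.7, 69.5, 11.7 and 34 over transcript values of 221, 254, 173 and 235, and a ratio of 0.297, 0.274, 0.0674 and 0.145. CT22 was 4.40 times CT34 (interval 3.86 to 5.04). Its intron 11 went the same way, at 0.866, 0.711, 0.289 and 0.538, and its intron 5 was at 0.668, 0.271, 0.0770 and 0.153, so in all 3 members of this host CT34 was lowest. Intron 5 passed the 0.2 limit on the mean only with CT22, and intron 10 only with CT22 and CT28 together. Their contrasts thus follow in part from the rule. The corrected mean ratios of introns 5, 10 and 11 of Ces3b were 0.0890, 0.160 and 0.216.

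G6pc encodes the catalytic subunit of glucose-6-phosphatase, the last step of glucose output. Its last intron had values of 12.1, 39.4, 24.2 and 12.4 over transcript values of 74.4, 89.1, 120 and 61.3. The ratio was 0.163, 0.442, 0.201 and 0.203, with a single high library, and CT28 was 2.18 times CT40 (interval 1.96 to 2.43). The mean over libraries passed the 0.2 limit only with CT28, so this contrast follows in part from the rule. Idnk, a gluconate kinase gene, ran the other way from the general course, with intron 3 at 0.126 at CT22 and 0.271 to 0.344 later. Etfbkmt intron 3 was at 0.337, 0.213, 0.210 and 0.116, and its mean passed the 0.2 limit only with CT22. Traf5 intron 1 was at 0.753, 0.340, 0.278 and 0.743, with a mean ratio of 0.496 from lower and 6.18 from upper values. Rgl3, a Ras effector gene, kept transcript values of 13.0 to 14.8, while its intron 11, printed above, was at 37.0, 26.7, 19.8 and 15.4, a ratio of 2.52, 2.06, 1.37 and 1.04 with a corrected mean of 0.776. Stap2 intron 8, also short and printed above, was at 1.59 to 1.68 in every library, with a corrected mean of 0.465.

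**Figure D4:**
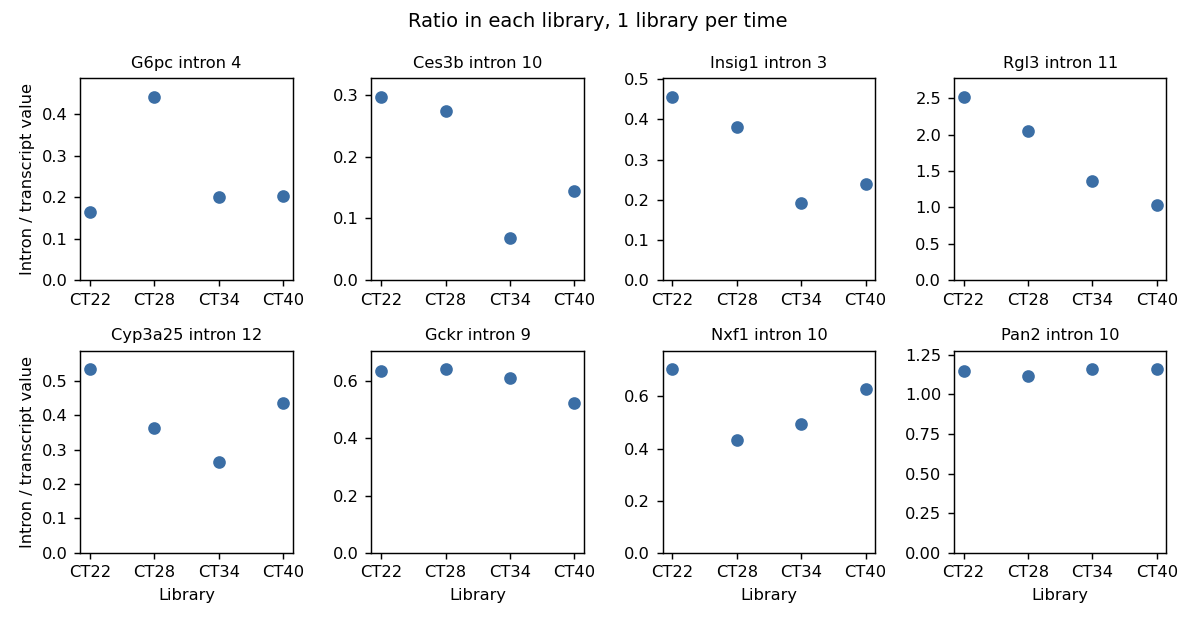
The ratio of intron to transcript value (y axis from 0, a scale of its own in each panel) in each library (x axis) for 8 member introns, 1 point per library. G6pc intron 4 has 1 high library at CT28, Ces3b intron 10 and Insig1 intron 3 are lowest at CT34, Rgl3 intron 11 is lower at each later time, and Pan2 intron 10 stays between 1.12 and 1.16.

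Members were spread thinly over hosts: 597 hosts had 1, 111 had 2, and 42 had 3 or more. Itgb2l and Adh7 had 6 each. Itgb2l is a homologue of the beta-2 integrin gene, and all 6 of its members had ratios of 0.394 to 1.08 with 0 exact junction reads, with a listed transcript of the opposite strand over all of them. Gnat1 encodes the transducin alpha subunit of rods, and its introns 2, 4, 5 and 6 were at 2.01 to 4.16 times the transcript with 0, 1, 0 and 3 junction reads. These introns are 107 to 220 bases long, and the corrected mean ratios were 1.05, 0.671, 1.14 and 1.18. Few reads were thus spliced at the ends of these members, and the other introns of both hosts were not members. Junctions with an end inside Gnat1 intron 6 held 67 reads. Adh7, an alcohol dehydrogenase gene, had introns 1 to 3 with 0, 1 and 3 junction reads and ratios of 0.165 to 0.556, while its intron 7 was at 1.42 to 1.86 with 69. A listed transcript of the opposite strand ran over all 6 of its members too. Junctions with an end inside Adh7 intron 1 held 84 reads.

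Other hosts with several members were spliced as well. Gckr encodes the regulator that holds glucokinase in the hepatocyte nucleus, and its introns 2, 9, 10, 11 and 17 were members. Values of Gckr intron 9 were 29.0, 35.3, 30.3 and 30.7 over transcript values of 45.7, 55, 49.6 and 58.6, a ratio of 0.635, 0.641, 0.611 and 0.524, with 329 junction reads. Gckr intron 17 was at 0.520 to 0.541 in the 4 libraries with 3 reads at its exact junction. Junctions with an end inside Gckr intron 17 held 400 reads, and M21 places exon sequence of Gckr within it. Stat2, of the interferon response, had introns 9, 10, 11, 15 and 20, with intron 10 at 1.13 to 1.61 (corrected mean 0.649) and intron 20, printed above, at 0.628, 0.628, 0.479 and 0.379 (corrected mean 0.222). Tyk2, the kinase upstream of Stat2, also had 3 members: Tyk2 intron 21 was at 0.776, 0.456, 0.252 and 0.177, and a listed transcript of the opposite strand ran over all 3.

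Several hosts had their members at the 3' end. Bace1, the beta-secretase gene, had introns 6 to 8 of 8, with intron 7 (219 bases) at 30.3, 39.8, 40.6 and 43.6 over transcript values of 7.71, 10.0, 11.5 and 10.2. The corrected mean ratio of Bace1 intron 7 was 1.78 against 3.91, and M21 places exon sequence of Gm49338 in all 3 introns. Prepl, a peptidase-like gene, had introns 11 to 14 of 14, with intron 14 at 1.5, 2.41, 2.59 and 2.21 (corrected mean 1.21). Fam120b had introns 6 to 10 of 10, with exon sequence of the lincRNA gene Gm49668 in 4 of them in M21, and Ppp4r4 introns 22 to 24 of 24. Gpr108 had 5 members, of which introns 11, 12 and 16 were higher at CT22 and CT28 (0.722 to 1.42) than at CT34 and CT40 (0.262 to 0.622). Tcp1, a subunit of the cytosolic chaperonin, had intron 10 at 1.69, 1.26, 1.32 and 1.76 with 740 junction reads and a corrected mean of 0.471. Tymp, thymidine phosphorylase, had intron 8 at 1.34 to 1.95 with 1556 and a corrected mean of 0.436, and M21 places exon sequence of Sco2 within it. Hjv, the BMP coreceptor that sets hepcidin, had all 3 of its introns as members, with intron 1 at 0.656 to 0.890. Tfr2, another iron sensor of hepatocytes, had intron 18 at 0.586, 0.392, 0.418 and 0.495 (corrected mean 0.244).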

How the data were processed

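PolyA RNA of mouse liver was sequenced at 4 circadian times, 1 library each. Per the submitters' processing notes the build was mm9. Per the file headers the aligner was RUM, of a version not given in the sources used here, as is the counting rule. For features the authors deposited lower and upper feature values, here called a score because no unit is stated; multiplied by length, 99.26 to 99.45% of lower intron values and over 99% of transcript values were whole read numbers (tolerance 0.05 read) on a step fixed within each library, as RPKM would be. Junction files hold deposited counts of reads.

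Reads were recovered as value times length over step (Python 3.11.15, numpy 2.4.6, pandas 2.3.3, scipy 1.17.1). The steps were tested on simulated data. Introns were matched to GENCODE M21 (GRCm38) by symbol, chromosome, strand and equal length, never by converted coordinates; intron coordinates marked mm9 are those of the files, 1-based, and sequences carry GRCm38 coordinates. No test was possible with 1 library per time. The members and gene lists were chosen with earlier results of these data known. Named introns are the 15 with the highest mean ratio, the 10 with the most reads, the 10 with the widest range among those with at least 100 reads in each library, the 5 nearest 0.2 on each side, members in the 13 gene lists, and hosts with 3 or more members; others are said to be chosen after seeing values. Introns are numbered from the 5' end of the parent transcript. The values of 1 member intron in these lists are not reported here.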

Additional observations from a re-analysis of the deposited data

Results flagged for a closer look

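Introns that belong to no RefSeq transcript were outside the set described above. Of 1705 introns of UCSC or Vega transcripts alone that passed the same limits on length, exon overlap and reads, 385 (22.6%) had a mean value at least 0.2 times that of their parent, against 9.45% of introns of RefSeq transcripts. They were singled out because the signal lies in rows the comparisons do not use; no control samples exist for it.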

How the results depend on the processing

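The number of members, 974, followed the limits: it was 2095 at a ratio of at least 0.1, 328 at 0.5, 414 with at least 50 reads in each library, 1760 with at least 10, 2238 from upper values, 444 with flanking exons as denominator, and 2084 when only exons of RefSeq transcripts were avoided. Without a length minimum it was 1029, with the highest parent 947. Alternatives added after seeing the data gave 748 (corrected lengths), 1028 (flanking exons, corrected) and 932 (parents with 20 reads). The count with a 2-fold range, 214, was 581 at 1.5-fold, 34 among members with at least 100 reads, 209 when centred, 212 from upper values, and 232 and 233 with flanking exons uncorrected and corrected. Leaving out 1 library gave between 89 (without CT22) and 180 (without CT28), with 153 without CT34 and 124 without CT40; the construction, 3 libraries in place of 4, lowers the count. Members highest at CT22 numbered 110 when centred (11.8%, against 31.3% of introns tested), in place of 453 (48.6%, against 62.9%). The median log2 differences reversed when centred, to -0.36 for CT22 over CT34 and -0.12 for CT28 over CT40. No paired analysis was possible because each time has 1 library and no replicate numbers are shared. A planned count of long-overlap junction reads was not run, since each junction has a single count. Members near 20 reads per library are limited by depth.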
